A study of Mus musculus with 2 samples.

Results

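Protein kinase A (PKA) is the main receptor of cAMP in most cells, and its 9 genes for subunits and inhibitors in the mouse were followed in primordial germ cells (PGCs) that over-expressed Klf9. The genes were taken by symbol from the deposited expression values of both libraries. They were Prkaca and Prkacb for the catalytic subunits, Prkar1a, Prkar1b, Prkar2a and Prkar2b for the regulatory subunits, and Pkia, Pkib and Pkig for the heat-stable PKA inhibitors (PKI). Of these 9 genes, 8 were listed under their own symbol in both libraries, among 22843 symbols so listed. Prkaca was listed alone in the control library, but only under a joint name with its neighbour Asf1b in the Klf9-OE library.

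PGCs with intense GFP had been sorted from E13.5 embryos carrying Oct4-deltaPE-GFP, a reporter active in germ cells, and were infected at an MOI of 5 with a lentivirus for the Klf9 coding region (Klf9-OE) or with a control lentivirus. Both cultures lasted 1 day, and each condition was sequenced as 1 library. The sample labels describe the medium as containing bFGF, whereas the paper describes it as lacking bFGF, in both cases for both libraries. Embryos of both sexes were dissected according to the paper, but the sex behind each library and the number of pooled embryos are not given in the sources used here. Expression was given as FPKM, the number of reads scaled to transcript length and to the mapped reads of the library, so that levels of different genes can be set side by side.

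In the resting PKA holoenzyme, a dimer of regulatory subunits holds catalytic subunits inactive, and binding of cAMP to the regulatory subunits releases the catalytic activity. The type I regulatory subunits (RI, from Prkar1a and Prkar1b) are largely soluble, while the type II subunits (RII, from Prkar2a and Prkar2b) are mostly held at membranes and cytoskeleton by A-kinase anchoring proteins. PKI peptides bind free catalytic subunits as pseudosubstrates and carry them out of the nucleus. In PGCs, forskolin, an activator of adenylate cyclase, promotes growth and the formation of pluripotent embryonic germ cells, and the study asked whether cAMP signalling lies downstream of KLF9.

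With 1 library per condition there was no replicate check on any difference, and no test of the conditions was possible. The error given with each FPKM is the 95% interval of Cufflinks, which covers the estimation within a library and not the difference between cultures. For single-start genes with 1 to 9 reads implied by the interval, the number was even for 36.3% in the control library and for 88.4% in the Klf9-OE library, so that the Klf9-OE intervals were also tried at a width multiplied by the square root of 2. Klf9 itself had an FPKM of 2.27 (1.97 to 2.57) in the control library and 80.8 (77.0 to 84.5) in the Klf9-OE library. The germ cell markers were abundant, with the FPKM of 8 genes (Dazl, Ddx4, Pou5f1, Dppa3 and others) summing to 1730 in control and 1459 in Klf9-OE PGCs. Of the 8, 6 were lower in Klf9-OE PGCs with intervals that did not overlap, and 1 was higher. Over all genes with an FPKM of at least 1, 20.3% were lower and 14.9% higher by this criterion. Markers of gonadal somatic cells summed to 19.9 and 25.4 (8 genes), those of endothelium to 19.9 and 30.2 (4 genes) and those of macrophages and blood to 0.449 and 1.22 (3 genes listed), in control and Klf9-OE PGCs respectively. The last of these sums was higher through Csf1r (0.307 and 1.18), while Ptprc and Adgre1 were below 0.1 in both libraries. Of the 8 gonadal genes, 3 were higher and 1 (Sox9, 2.04 and 1.09) was lower with separate intervals. Of the 4 endothelial genes, 2 were higher and 1 (Tek, 0.735 and 0.439) was lower, and Pecam1 (16.8 and 24.2) made up most of the sum. Over all genes, 11.3% were higher and 14.5% lower by this criterion. None of these markers was at 0 in both libraries. Cyp17a1, a marker of steroidogenic cells, was near 0 in control (0.0666, interval 0 to 0.279) and listed at 0 in Klf9-OE PGCs. In bulk samples, fewer cells of a type and less RNA per cell cannot be told apart.

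The regulatory gene Prkar2b showed the clearest difference among the PKA genes. Its level was 73.2 in control PGCs and 52.1 in Klf9-OE PGCs, whereas Prkar1a, the other abundant regulatory gene, was at 85.4 and 89.2. The sequences before the starts of these genes are shown because these were the most abundant PKA genes in both libraries. They are the 250 bases before the start in RefSeq (GRCm38.p6), from 5′ to 3′ on the strand of the gene. Capitals mark GC boxes (GGGCGG or its reverse complement), the class of site that Klf and Sp factors bind, and the cAMP response element (CRE, TGACGTCA), and these matches did not overlap each other. The Prkar1a stretch lies at chr11:109650699-109650948 on the forward strand and the Prkar2b stretch at chr12:32061278-32061527 on the reverse strand.
Prkar1a: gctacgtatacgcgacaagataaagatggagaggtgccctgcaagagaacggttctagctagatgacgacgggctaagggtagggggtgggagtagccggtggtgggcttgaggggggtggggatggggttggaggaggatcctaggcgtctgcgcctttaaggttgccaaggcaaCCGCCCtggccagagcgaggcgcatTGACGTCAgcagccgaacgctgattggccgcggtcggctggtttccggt
Prkar2b: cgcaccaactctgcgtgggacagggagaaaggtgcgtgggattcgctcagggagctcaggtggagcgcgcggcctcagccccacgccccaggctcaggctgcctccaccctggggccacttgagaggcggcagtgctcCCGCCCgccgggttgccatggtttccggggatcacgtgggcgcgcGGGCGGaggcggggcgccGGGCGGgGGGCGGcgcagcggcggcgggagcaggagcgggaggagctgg

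The Prkar2b stretch held 4 GC boxes, whose first bases lie 112, 67, 49 and 42 bases before the start, and no CRE. The Prkar1a stretch held 1 GC box at 74 bases before the start and 1 CRE at 49 bases before it. A GC box was present in 32.7% and a CRE in 1.55% of the 32851 stretches of this length in the RefSeq set, on either strand. The letters CACCC, also counted, occurred 2 times in the Prkar1a stretch and 1 time in that of Prkar2b, and in 52.0% of all stretches. G and C made up 61.6% of the Prkar1a stretch and 75.6% of that of Prkar2b, which bears on the number of GC boxes. A promoter was matched for 8 of the 9 genes, Pkia being the exception, and 5 of these 8 held a GC box before the RefSeq start nearest to the start of the deposited locus. They were Prkaca (2 matches), Prkacb (3), Prkar1a (1), Prkar2b (4) and Pkig (1), while Prkar1b, Prkar2a and Pkib held none there. These counts depend on the start chosen, since most of the genes have several starts in RefSeq. They take 1 start per gene, whereas the 32.7% is over all stretches of the RefSeq set, so the sets are unlike. Before other starts, Prkar1a held 3 matches (393 bases away) and 2 (407 bases away) and none at 3 others, Prkar1b held 1, 2 and 1 at 3 of its starts, and Prkar2b held none at its other start. A relation of these matches to the differences between the libraries was not tested. A match is a description of the letters, and binding was not measured in these libraries.

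Of the catalytic genes, Prkacb encodes the beta catalytic subunit, which has several tissue-dependent first exons, and lies on the reverse strand of chromosome 3 from 146729579 to 146812946 of mm10. It had an FPKM of 6.95 (6.37 to 7.52) in the control library and 6.77 (6.24 to 7.30) in the Klf9-OE library. The ratio of Klf9-OE to control was 0.974, and the 95% interval of this ratio, from the interval widths of both libraries, was 0.870 to 1.09. The levels of Prkacb therefore differed by less than their error of estimation.

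Prkaca encodes the widely expressed alpha catalytic subunit and lies on chromosome 8 from 83972978 to 83996442 on the forward strand. Its FPKM was 17.2 (15.9 to 18.4) in control PGCs, 71.2% ± 2.25 (95% margin of estimation) of the summed catalytic FPKM of 24.1. In the Klf9-OE file a single locus from 83955694 to 83996442 carried the names of Asf1b and Prkaca together. Asf1b, which encodes a histone chaperone, ends 2782 bases before Prkaca begins in the control file. The joint locus had an FPKM of 108.0 (103 to 113) in Klf9-OE PGCs, and the sum of Asf1b (90.6, interval 85.7 to 95.4) and Prkaca in control PGCs was 107.7 (103 to 113). The ratio of these sums was 1.00 (0.940 to 1.07). As Prkaca made up 15.9% of the control sum, the joint value bounds neither gene closely, and no level of Prkaca in Klf9-OE PGCs is given.

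**Figure D1:**
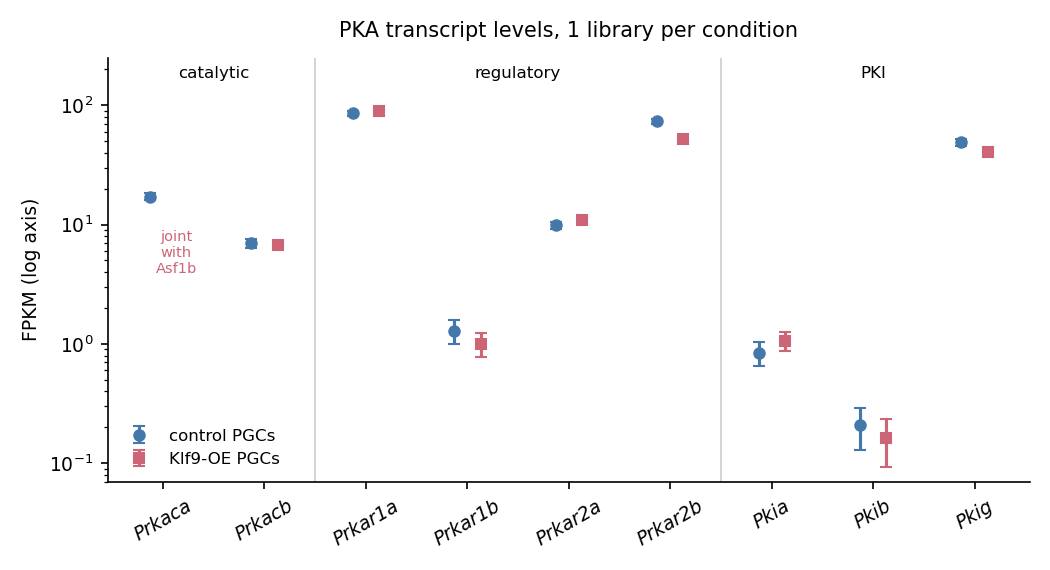
FPKM of the 9 PKA genes (log axis) in control PGCs (circles) and Klf9-OE PGCs (squares), with the Cufflinks 95% interval as bars. Prkar1a, Prkar2b and Pkig lie above 40 in both libraries, Pkib lies below 0.3, and Prkaca has no separate value in Klf9-OE PGCs.

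The regulatory genes were the most abundant of the PKA genes. Prkar1a encodes RI alpha, the subunit that restrains catalytic activity in most tissues, and lies on chromosome 11 from 109650949 to 109669648. Its FPKM was 85.4 (81.3 to 89.4) in the control library and 89.2 (85.1 to 93.3) in the Klf9-OE library, at or above that of 94.4% and 94.9% of the genes above 0 in the respective library. The intervals overlapped, and the ratio was 1.05 (0.978 to 1.12).

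Prkar1b encodes RI beta, which is found mainly in brain, and lies on chromosome 5 from 139017304 to 139130386. Its FPKM was 1.30 (0.993 to 1.60) in the control library and 1.01 (0.776 to 1.24) in the Klf9-OE library, with a ratio of 0.777 (0.560 to 1.08). The levels were low and their intervals overlapped. Of the distinct 51-mers of its annotated transcripts, 7.77% also occurred in Gm15672, a non-coding transcript on the same strand, which lies beyond the end of the locus given in the files. For Prkaca (0.287%, shared with the pseudogene Prkaca-ps1) and Pkib (1.79%) the share was smaller, and for the other 6 genes it was 0.

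Prkar2a encodes RII alpha, which is widely expressed, and lies on chromosome 9 from 108692143 to 108750425. Its FPKM was 9.85 (9.20 to 10.5) in the control library and 10.9 (10.3 to 11.5) in the Klf9-OE library. The intervals of the libraries overlapped, although that of the ratio of 1.11 lay just above 1 (1.01 to 1.21).

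Prkar2b encodes RII beta, which is best known from brain, fat and ovarian granulosa cells, and lies on the reverse strand of chromosome 12 from 31958479 to 32061279. Its FPKM was 73.2 (69.2 to 77.2) in the control library and 52.1 (49.1 to 55.1) in the Klf9-OE library. The level was thus lower in Klf9-OE PGCs, by 21.1 FPKM, and the intervals were well separated. The ratio was 0.712 (0.658 to 0.770), which is 1.40-fold lower, and the log2 fold change was -0.49. With the Klf9-OE interval widened as described, the upper bound was 56.3 and still below the control interval. No other gene of the GENCODE annotation overlapped it. Among the 8 germ cell markers, the ratio of Klf9-OE to control ran from 0.608 (Dppa3) to 1.08 (Dazl). Of these markers 6 were lower with separate intervals, among them Pou5f1 (387 and 277), whereas Dazl (351 and 378) was higher and the intervals of Ddx4 (300 and 292) overlapped. By this criterion, 20.3% of all genes with an FPKM of at least 1 were lower and 14.9% higher. The part of germ cell content in the difference of Prkar2b was not tested.

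**Figure D2:**
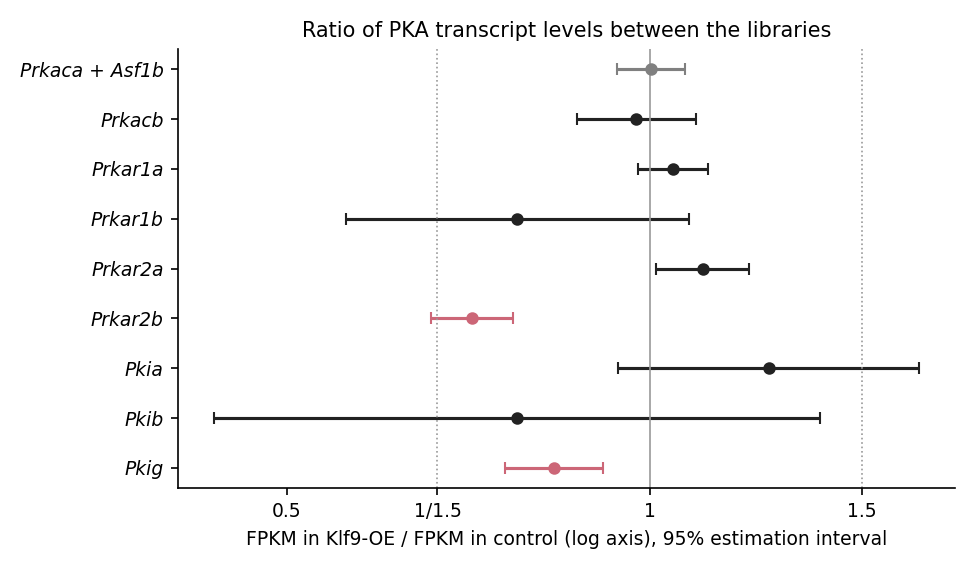
Ratio of FPKM in Klf9-OE to control PGCs (log axis) for the PKA genes, with Prkaca summed with Asf1b; bars are 95% intervals from the Cufflinks intervals of both libraries and dotted lines mark 1.5-fold. Prkar2b (0.712) and Pkig (0.833), in colour, are the genes whose FPKM intervals did not overlap between the libraries.

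Among the inhibitors, Pkig was the main transcript. It encodes PKI gamma, which is expressed in many tissues, and lies on chromosome 2 from 163658386 to 163726158. Its FPKM was 49.1 (45.8 to 52.4) in the control library and 40.9 (38.3 to 43.5) in the Klf9-OE library. The Klf9-OE level was lower, with intervals that did not overlap, and remained so with the widened Klf9-OE interval, whose upper bound was 44.6. The ratio was 0.833 (0.759 to 0.914) and the log2 fold change -0.26. An antisense gene, Gm16316, lies within Pkig on the opposite strand, though not over its exons.

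Pkia, for PKI alpha of muscle and brain, lies on chromosome 3 from 7366604 to 7445365. Its FPKM was 0.846 (0.656 to 1.04) in the control library and 1.06 (0.870 to 1.25) in the Klf9-OE library, a ratio of 1.25 (0.941 to 1.67). Pkib, for PKI beta, which is prominent in testis, lies on chromosome 10 from 57631981 to 57741112. Control PGCs gave an FPKM of 0.211 (0.128 to 0.294) and Klf9-OE PGCs one of 0.164 (0.0939 to 0.233), a ratio of 0.776 (0.435 to 1.38). For both genes the intervals overlapped and were too wide to show a difference of this size. The width of the Pkib interval corresponds to that of 26.1 reads in control and 22.0 in Klf9-OE PGCs if counting were the only error, while for Prkar1a it corresponds to 1772 and 1872 reads.

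Over the 8 genes listed singly in both libraries, 5 were below and 3 above their control level, and none reached a ratio of 1.5 in either direction. Over all 18337 genes above 0 in at least 1 library, 16.1% were higher and 15.1% lower by this ratio, and over the 12264 genes with an FPKM of at least 1 in at least 1 library, 16.0% passed it in either direction. The FPKM intervals did not overlap for 2 of the 8 PKA genes, Prkar2b and Pkig, both lower in Klf9-OE PGCs. By this criterion 14.5% of all genes were lower and 11.3% higher, and 20.3% and 14.9% of genes with an FPKM of at least 1. The interval of the ratio left out 1 for these genes and for Prkar2a, which gives 2 lower and 1 higher, against 19.6% lower and 14.9% higher over all genes. These counts do not set the PKA genes apart as a group from all genes. Their median log2 fold change was -0.14, against -0.014 over all genes. This median lies midway between Prkacb (-0.037) and Pkib (-0.24), and the level of Pkib was near the floor. Among the 7 PKA genes with an FPKM of at least 1, the middle value was that of Prkacb. It was -0.037, against -0.025 over all genes at that level. When the libraries were rescaled to the same summed FPKM, which multiplied Klf9-OE values by 1.04, the intervals of Prkar2a (11.4, interval 10.7 to 12.0) no longer overlapped either, so that 1 gene was higher and 2 were lower. Of all 18337 genes, 2781 were then higher and 2024 lower with separate intervals, against 2076 and 2650 as deposited.

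**Figure D3:**
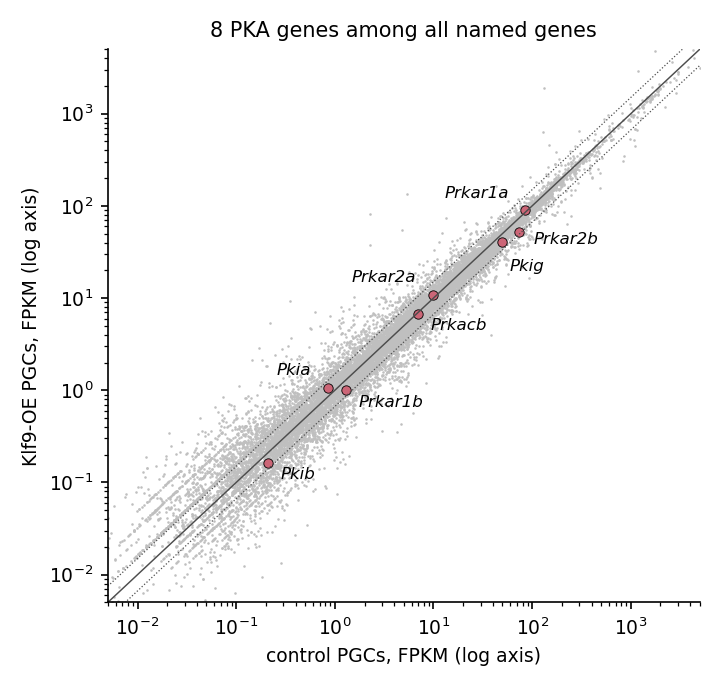
FPKM in control PGCs against FPKM in Klf9-OE PGCs (log axes) for genes above 0 in both libraries (grey points, with 27 outside the axes), with the 8 singly listed PKA genes in colour; the solid line marks equal values and the dotted lines 1.5-fold. All 8 PKA genes lie between the dotted lines, and Prkar2b lies closest to the lower line among the abundant ones.

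Because ratios within a library do not depend on its scaling, the make-up of the PKA transcripts was compared between the libraries. In control PGCs, the regulatory FPKM summed to 169.7 and was divided almost evenly between the types, with a ratio of RII to RI of 0.958 ± 0.0645 (95% margin of estimation). In Klf9-OE PGCs this ratio was 0.698 ± 0.0464. The difference, -0.26 ± 0.0795, was larger than the error of estimation. Prkar2b made up 43.1% ± 1.69 of the regulatory FPKM in control PGCs and 34.0% ± 1.58 in Klf9-OE PGCs. Prkar1a accounted for 50.3% ± 1.68 and 58.2% ± 1.61, and Prkar2a for 5.80% ± 0.411 and 7.11% ± 0.455. Prkar1b stayed below 1% of the sum (0.763% and 0.656%). As the shares are parts of one sum, the lower level of Prkar2b raises the other shares. The level of Prkar1a itself differed within its error (ratio 1.05, interval 0.978 to 1.12). The ratios of RII to RI and of RII to Prkacb also contain Prkar2b, so they largely restate its difference and are not separate results.

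Within the type II class, the ratio of Prkar2b to Prkar2a was 7.43 ± 0.635 in control and 4.78 ± 0.392 in Klf9-OE PGCs. The ratio of Prkar2b to Prkar1a was 0.858 ± 0.0617 and 0.584 ± 0.0429. That of Prkar2a to Prkar1a was 0.115 ± 0.0094 and 0.122 ± 0.0091, within the error of estimation. The summed RI level was 86.6 ± 4.07 and 90.2 ± 4.13, and the summed RII level 83.0 ± 4.01 and 63.0 ± 3.04, in control and Klf9-OE PGCs respectively.

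In control PGCs, where both catalytic genes had a value, regulatory transcripts exceeded catalytic transcripts by a ratio of 7.04 ± 0.461, and PKI transcripts exceeded them by 2.08 ± 0.181. These are ratios of transcripts, and protein was not measured. With Prkacb alone as the catalytic gene, regulatory transcripts stood at 24.4 ± 2.19 in control and 22.6 ± 1.92 in Klf9-OE PGCs, a difference within its error (-1.79 ± 2.91). Likewise, PKI to regulatory transcripts stood at 0.296 ± 0.022 and 0.275 ± 0.0194, with a difference of -0.021 ± 0.0293. The ratio of RII to Prkacb was 12.0 ± 1.15 and 9.31 ± 0.853, and its difference of -2.65 ± 1.43 was larger than the error. The ratio of PKI to Prkacb was 7.22 ± 0.767 and 6.22 ± 0.621. Its difference of -0.999 ± 0.987 just passed the margin, and no longer did so with the widened Klf9-OE interval, which gave a margin of 1.17 (an alternative chosen after seeing the data). Pkig made up 97.9% of the PKI FPKM in control and 97.1% in Klf9-OE PGCs.

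**Figure D4:**
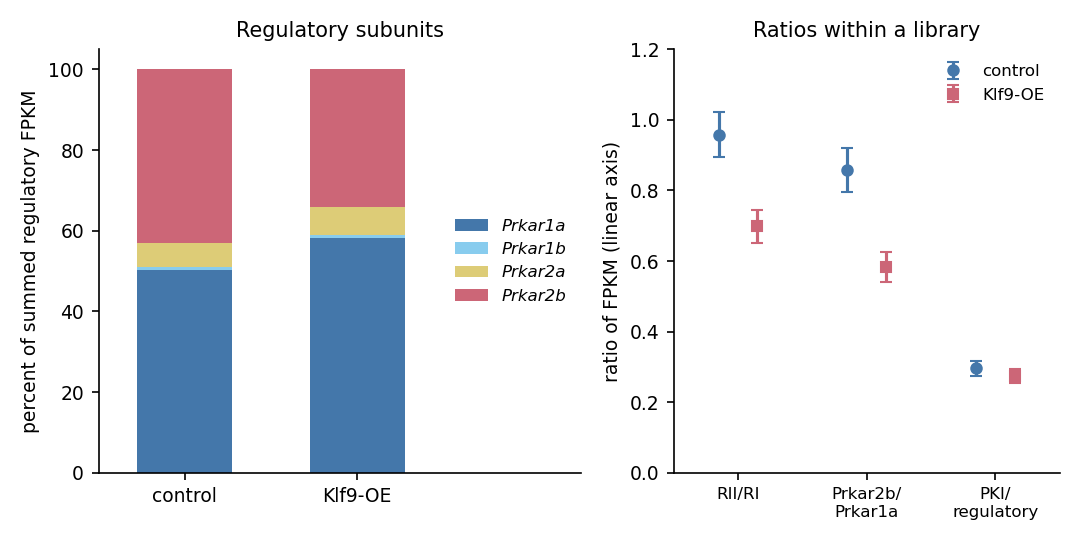
Left, percent of the summed regulatory FPKM held by each regulatory gene in each library; right, ratios of FPKM within a library (linear axis) for RII to RI, Prkar2b to Prkar1a and PKI to all regulatory genes, with 95% margins as bars. The Prkar2b share is 43.1% in control and 34.0% in Klf9-OE PGCs, and the ratio of RII to RI is 0.958 and 0.698.

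The other genes of the cAMP and PKA pathway were taken from 5 lists of 88 genes in all, of which 84 were listed singly in both libraries and 82 were above 0 in at least 1 library. A ratio of 1.5 was passed upwards by 6 and downwards by 5 of these 82 genes, against 16.1% upwards and 15.1% downwards over all genes. Among the 60 with an FPKM of at least 1, 1 was higher and 4 were lower, against 16.0% in either direction over all genes at that level. Their median log2 fold change was -0.0044, against -0.025 over all genes at that level.

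A-kinase anchoring proteins, which place the RII subunits in the cell, numbered 27 genes above 0, and their median log2 fold change was 0.046. None passed a ratio of 1.5 with intervals that did not overlap, as 12.3% of all genes with an FPKM of at least 1 did. The most abundant were Arfgef1 (64.3 in control and 62.1 in Klf9-OE PGCs) and Wasf1 (44.1 and 45.6), whose intervals overlapped. Akap12, Opa1, Akap9 and Lrba are added here after their values were seen, as the 4 genes of the list with intervals that did not overlap. Of the list, 21 genes had an FPKM of at least 1. Over all genes at that level, 20.3% were lower and 14.9% higher with separate intervals. Akap12, which scaffolds PKA at the plasma membrane, was at 24.4 (23.4 to 25.4) and 17.3 (16.7 to 17.9), a ratio of 0.707, similar in size to that of Prkar2b. Opa1, a mitochondrial fusion protein that anchors PKA on lipid droplets, was at 18.2 in control PGCs with a ratio of 0.741. Akap9 of the centrosome was at 10.1 and 8.83, and Lrba, a protein of vesicle traffic, was at 15.5 and 17.5. The intervals of a few genes, such as Akap13, were too wide to be used, and these count as overlapping.

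Of the 12 genes for kinases, phosphatases and ligases that act on PKA or are related to it, none passed a ratio of 1.5 with separate intervals, against 12.3% of all genes with an FPKM of at least 1, a level that 10 of the 12 reached. The phosphatase genes Ppp1cc (157 and 126) and Ppp1ca (140 and 157) were the most abundant, the former lower and the latter higher in Klf9-OE PGCs with intervals that did not overlap. Among the other cAMP effectors, Hcn4, a cyclic nucleotide-gated channel of pacemaker cells, was at 11.4 (10.6 to 12.2) and 7.09 (6.60 to 7.58), a ratio of 0.621 with separate intervals. It was the only gene past both criteria among the 6 of this list with an FPKM of at least 1, against the same 12.3% of all genes. Bves, a cAMP-binding membrane protein, was at 3.67 and 3.10 with intervals that overlapped.

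In the list of cAMP supply and removal, Gnas, for the stimulatory G alpha subunit, was at 61.4 and 60.8 with intervals that overlapped. Pde8a, a cAMP phosphodiesterase, was at 18.6 and 16.2, lower with separate intervals. By separate intervals, 2 genes of the list were higher and 4 lower. The shares were 14.9% and 20.3% over all genes with an FPKM of at least 1. The genes past a ratio of 1.5 with separate intervals were Adcy2 (1.59 and 3.76), Adcy6 (4.16 and 2.65) and Pde4b (1.93 and 1.25). They were among 21 genes above 0, of which 15 had an FPKM of at least 1. Over all genes at that level, 12.3% passed both criteria. None of the 8 CREB factors and coactivators, which act on transcription after phosphorylation by PKA or in parallel to it, passed a ratio of 1.5, against 16.0% of all genes with an FPKM of at least 1. The most abundant were Atf1 (38.1 and 40.9), whose intervals overlapped, and Ep300 (26.7 and 29.2), which was higher with separate intervals. The coactivators Crtc2 (10.4 and 13.2, higher) and Crebbp (19.7 and 18.1, lower), added after their values were seen, were the others of this list with separate intervals. Over all genes with an FPKM of at least 1, 14.9% were higher and 20.3% lower by this criterion.

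**Figure D5:**
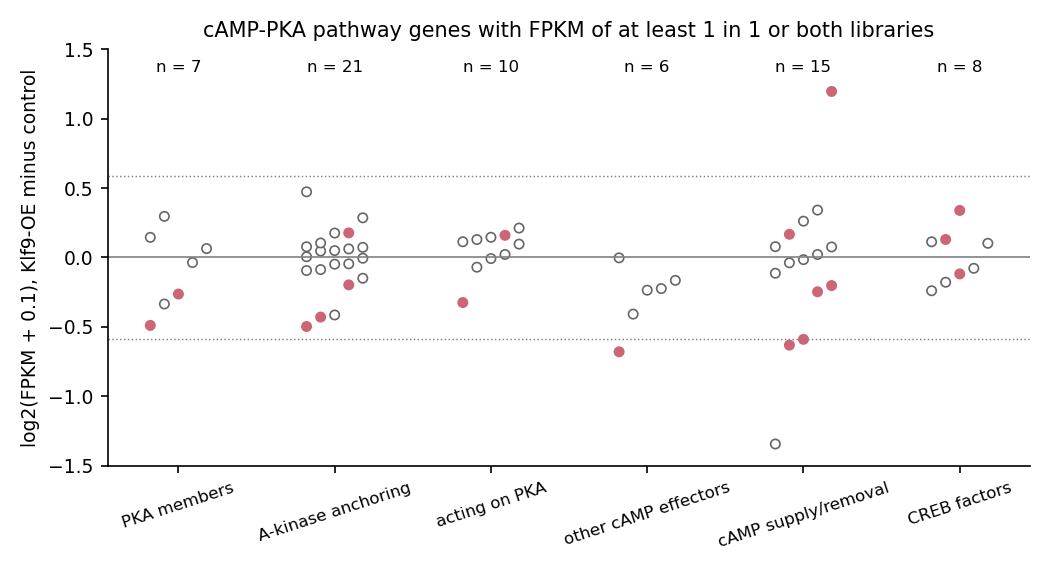
Difference in log2(FPKM + 0.1) between Klf9-OE and control PGCs for each gene with an FPKM of at least 1 in at least 1 library, in the PKA genes and 5 pathway lists; filled points have FPKM intervals that did not overlap, dotted lines mark 1.5-fold, and the spread along the horizontal axis within a list only separates points. The 7 PKA genes lie between -0.49 (Prkar2b) and 0.30 (Pkia), and Adcy2 is the highest point of all lists.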

How the data were processed

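The data are RNA-seq libraries of control and Klf9-OE PGCs, 1 each. Single-end 51-mer reads were aligned by the authors to mm10 and RefSeq with TopHat2 and Bowtie, and they deposited the FPKM that Cufflinks estimated for each locus, with the bounds of a 95% interval (the paper writes RPKM). Tool versions are not given in the sources used here. TruSeq v2 libraries do not mark strand. Read totals are not in the files, so the depth is unknown.

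From these values, FPKM of rows with the same single symbol was summed, although each PKA gene had 1 row. Joint-named loci (714 in control, 663 in Klf9-OE) were left out of counts, which removed Prkaca from comparisons. Ratios used no pseudocount, and genes at 0 in 1 library counted as changed. Log2 fold changes used log2(FPKM + 0.1), which understates changes of low genes. Intervals of sums and ratios treat the libraries and genes as independent. Members and lists were chosen with earlier results of these data known. Named genes were all members, Klf9, the 2 most abundant genes of each list and list genes with an FPKM of at least 1, a ratio past 1.5 and separate intervals. Gene overlaps and 51-mers came from GENCODE M21, and start stretches from RefSeq. The calling steps were tried on simulated counts of well-covered genes with a ratio of 2, called on log2(FPKM + 0.1). Low genes, smaller differences and ratios without a pseudocount were therefore not covered by it. Alternatives were pseudocounts of 0.01 and 1 (0.1 for counts), equal upper quartile or sum, the highest row, an FPKM of at least 1, a ratio of 2, widened intervals, the joint locus and other class definitions. Python 3.11.15, numpy 2.4.6, pandas 2.3.3 and matplotlib 3.10.9 were used.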

Additional observations from a re-analysis of the deposited data

How the results depend on the processing

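The log2 fold change of Prkar2b lay between -0.49 and -0.43 and that of Pkig between -0.26 and -0.20 under the pseudocounts, both rescalings and the use of the highest row. Prkacb changed sign when rescaled to the same sum, within its error (-0.037 to 0.021). Rescaling to the same sum left 1 PKA gene, Prkar2a, higher with separate intervals, against 0 as deposited, and 12 of 82 pathway genes instead of 6. Of all 18337 genes, 2781 were higher by this criterion after the rescaling, against 2076 as deposited. It moved the median log2 fold change of all genes from -0.014 to 0.040. Counting the joint locus as a member, which was chosen after seeing the data, changed no count. For the pathway lists, a pseudocount of 1 left 1 gene higher and 2 lower by 1.5-fold. A minimum FPKM of 1 left 1 higher, a ratio of 2 left 2 lower, and the widened Klf9-OE interval left 3 higher with separate intervals. With the widened interval, 1563 of all 18337 genes were higher by this criterion, against 2076 as deposited. For the pseudocount of 1 and the ratio of 2, no share over all genes is given, so those counts are not set against a background. The cause of these shifts was not tested beyond the construction of each alternative. With RI genes alone, the ratio of regulatory transcripts to Prkacb was 12.5 in control and 13.3 in Klf9-OE PGCs, and with RII genes alone it was 12.0 and 9.31. No paired analysis was possible because each condition had 1 library, and for the same reason no library could be left out. The wide intervals and the unknown depth limit Pkia, Pkib and Prkar1b most, as these had the lowest levels of the PKA genes.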
